A study of Mus musculus with 12 samples.

Results

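The cytosolic ribosomal protein genes, which encode the proteins of the large (Rpl) and small (Rps) ribosomal subunits, were followed in lower motor neurons of mice that carry a mutant TDP-43. They were taken by name: 84 of the 25965 entries of the count table had an Rpl or Rps symbol followed by a number, with or without closing letters, or were Rpsa or Rplp0 to Rplp2. Of these, 82 averaged 20 or more counts over the 12 libraries and were kept, 49 of the large and 33 of the small subunit. Rpl10l had 0 counts in every library and Rpl39l averaged 3.92 counts, while the kept gene nearest to the threshold, Rpl3l, averaged 72.8 counts. The 82 consist of 77 core genes, 46 large and 31 small, and 5 relatives of core genes (Rpl3l, Rpl7l1, Rpl22l1, Rps27l and Rps4y2). They lie on 19 chromosomes, and all 82 were among the 16338 genes that had enough counts to be tested.

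The RNA came from laser-captured lumbar motor neurons of C57BL/6 mice at 5 months of age. Homozygotes (Q331K/Q331K) carry the Q331K change of TDP-43, an RNA-binding protein encoded by Tardbp, on both copies of the gene by knock-in. Heterozygotes (Q331K/+) carry it on 1 copy, and wild type mice (+/+) on 0. Each genotype had 4 libraries. Whether libraries and animals correspond is not stated in the labels, and p-values therefore measure the spread between libraries, and the libraries compared with wild type share the same 4 wild type libraries in both comparisons.

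Each ribosome needs about equal numbers of copies of nearly every ribosomal protein, and the genes for them are among the most steadily expressed in the genome. Their mRNAs begin with a run of pyrimidines, the terminal oligopyrimidine tract, through which the kinase mTOR sets how strongly they are translated, so mRNA level and protein output can differ. Vertebrates make most of these proteins from a single working gene beside many processed pseudogenes, and a few core genes have a relative that can take the place of the usual protein in some tissues.

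The sequence around the start of transcription is shown for 5 genes that the results below turn on: Rps27l, whose libraries in each mutant genotype did not overlap wild type, Rpl12, whose heterozygote libraries did not overlap wild type, Rpl22l1 and its counterpart Rpl22, and Rpl4, the member with the highest count on average. Each run gives 55 bases before and 20 from the annotated start, 5' to 3' on the + strand of GRCm38.p6, from RefSeq: Rps27l at chr9:66946031-66946105, Rpl22l1 at chr3:28805453-28805527, Rpl22 at chr4:152325671-152325745, Rpl12 at chr2:32961657-32961731, Rpl4 at chr9:64173332-64173406. Capitals mark the pyrimidine motif CTTTC or the TATA motif TATAAA on the gene's strand, and CCGGAAG, a core of ETS factor sites, on either strand.
Rps27l: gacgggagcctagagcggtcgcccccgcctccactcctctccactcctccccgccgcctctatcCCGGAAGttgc
Rpl22l1: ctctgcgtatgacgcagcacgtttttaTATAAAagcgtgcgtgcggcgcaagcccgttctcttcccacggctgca
Rpl22: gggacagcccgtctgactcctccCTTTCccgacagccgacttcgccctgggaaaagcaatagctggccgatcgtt
Rpl12: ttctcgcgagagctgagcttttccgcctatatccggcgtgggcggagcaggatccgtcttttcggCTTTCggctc
Rpl4: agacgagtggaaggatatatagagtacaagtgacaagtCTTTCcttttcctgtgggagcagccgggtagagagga
Of the 82 genes, 60 had such a window in the RefSeq table. CTTTC lay within 30 bases of the start, on the gene's strand, in 19 of the 60 (31.7%), against 661 of 10890 tested genes with a window (6.07%). It was found in 37.8% of large and 21.7% of small subunit windows. CCGGAAG on either strand, between 250 bases before and 50 after the start, was held by 23 of 60 (38.3%), against 16.0% of tested genes. AAGATGGC, a core of the YY1 site, was held by 5 of 60 in the same window (8.33%), against 4.08%. TATAAA between 40 and 15 bases before the start was found in 1 member, Rpl22l1 (1.67% of 60), against 1.22% of tested genes. A match describes these letters and does not show that a factor binds there.

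Total counts per library ran from 60886825 to 83504446. Tardbp averaged 75.6 ± 2.2 CPM in homozygotes, 73.0 ± 5.5 CPM in heterozygotes and 73.7 ± 7.7 CPM in wild type (SD, n = 4 each), where CPM is counts scaled to the library total times a TMM factor. That factor was 0.940 in homozygote 1, 0.942 in heterozygote 1 and 0.988 to 1.03 in the other 10 libraries, and a lower factor gives a higher CPM. Homozygote 1 and heterozygote 1 stood apart in cell type markers. Their 8 inhibitory interneuron markers summed to 19.4 and 31.0 CPM, against 428 to 919 CPM in the other 10 libraries, their 5 excitatory interneuron markers to 13.5 and 14.8 CPM, against 183 to 352 CPM, and their 11 motor neuron markers to 12865 and 12493 CPM, against 4722 to 8690 CPM. By genotype, the inhibitory markers summed to 19.4 to 664 CPM in homozygotes, 31.0 to 838 CPM in heterozygotes and 428 to 919 CPM in wild type. The 9 astrocyte markers of homozygote 1 and heterozygote 1 summed to 668 and 583 CPM, against 950.4 to 1618 CPM. Only 1 of these 9, Aldoc, was below the other 10 libraries in both, and 0 were above. Aldoc had 511 and 467 CPM, against 791 to 1281 CPM, and made up most of each sum. Oligodendrocyte and microglial markers were found in each genotype, and for these the pair lay within the range of the other 10. In such captured tissue, fewer cells of a type and less RNA per cell cannot be told apart.

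Ribosomal protein genes took 0.951%, 0.847%, 0.969% and 0.944% of the counts in homozygotes 1 to 4. In heterozygotes 1 to 4 the share was 0.888%, 0.950%, 0.937% and 0.998%. In wild type 1 to 4 it was 0.814%, 0.915%, 0.971% and 0.952%. The means were 0.928% ± 0.055 in homozygotes, 0.943% ± 0.045 in heterozygotes and 0.913% ± 0.070 in wild type (SD, n = 4 each), and the genotypes overlapped. Summed CPM of the large subunit was 1.71 ± 0.03 times that of the small subunit in homozygotes, 1.71 ± 0.04 times in heterozygotes and 1.68 ± 0.04 times in wild type. That ratio stayed between 1.65 and 1.76 in every library, as the plot of summed shares shows.

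**Figure D1:**
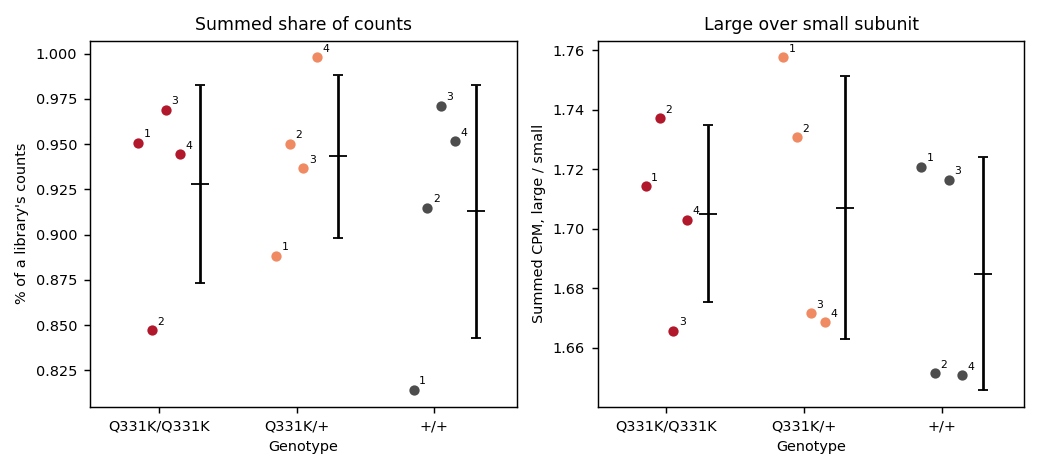
Left, share of a library's counts taken by the 82 ribosomal protein genes, in %; right, summed CPM of large over small subunit genes. Each point is a library with its replicate number, in homozygotes, heterozygotes and wild type from left to right; bars give the mean and SD of 4. Homozygote 2 (0.847%) and wild type 1 (0.814%) have the lowest shares, and neither vertical axis starts at 0.

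The core genes varied little between libraries. Their coefficient of variation over the 12 libraries had a median of 9.24%, and 48 of 77 were under 10%. The median was 8.98% for large and 9.24% for small subunit core genes. It was 16.6% for the 8614 tested genes in the same range of mean CPM (10.5 to 372) and 26.2% for all tested genes. Within that range the 8614 were not matched to the core genes in level. Mitochondrial ribosomal protein genes (9.75%) and translation factors (10.1%) had medians near that of the core genes, and ribosome biogenesis genes had 14.5%. Rpl19, a large subunit protein, was the steadiest at 4.39%, with 231 to 269 CPM in every library. The least steady core gene was Rps27a (21.1%), which encodes a small subunit protein fused to ubiquitin. It had 93.8, 54.1, 84.7 and 93.8 CPM in homozygotes 1 to 4, 91.8, 78.3, 78.5 and 103 CPM in heterozygotes 1 to 4, and 60.2, 62.1, 102 and 107 CPM in wild type 1 to 4. Homozygotes and wild type each held both high and low libraries, while heterozygotes ran from 78.3 to 103 CPM. Only the relatives Rps4y2 (29.0%) and Rpl3l (76.8%) varied more among the 82.

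Levels between genes were compared per length, as CPM per kb of the main annotated transcript. The median was 161 CPM per kb over the core large subunit genes and 144 CPM per kb over the core small subunit genes. Per kb of coding sequence the medians were 229 and 208, so the order of the medians held. The subunits overlapped widely per kb of transcript, with quartiles of 100 and 201 for large and 94.4 and 194 for small. The highest of the large subunit were Rpl19 with 343 ± 15 CPM per kb and Rpl38 with 300 ± 37 CPM per kb (SD, n = 12). Rpl38, which in mouse embryos is needed for translation of Hox mRNAs, was followed by Rplp1, an acidic protein of the ribosomal stalk, with 292 ± 25. High among the small subunit genes were Rps6, the substrate of the S6 kinases, with 264 ± 41, and Rps14 with 263 ± 26. Of the 76 pairs of neighbours in the order of core genes, 70 differed by less than their spread.

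At the lower end, Rps20 had 17.1 ± 1.6 and Rps12 21.2 ± 1.6 CPM per kb, and among large subunit core genes Rpl27a had 44.4 ± 4.4 and Rpl7a 50.04 ± 3.4 (SD, n = 12). Rps20 is measured against a transcript of 3706 bases, and per kb of coding sequence it ranked 55 among the 77 core genes. Rps12 had 8.6 to 11.7 CPM in every library, and 90.1% of the 50-base stretches of its transcript were also found in transcripts of other genes. Such sharing, mostly with pseudogenes, was common: the median core gene shared 62.2% of its stretches, and 50 of 77 shared 50% or more. A read from a shared stretch can be counted for either gene or for none, so levels of these genes are uncertain. The Spearman correlation of sharing with level per kb was -0.02 across the 77 core genes, a description of genes that share libraries. The 20 genes with 80% or more shared had a median of 164 CPM per kb and the 21 with under 40% had 157. In addition, 19 of the 82 genes overlap another entry of the table, and the library kits keep no strand.

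**Figure D2:**
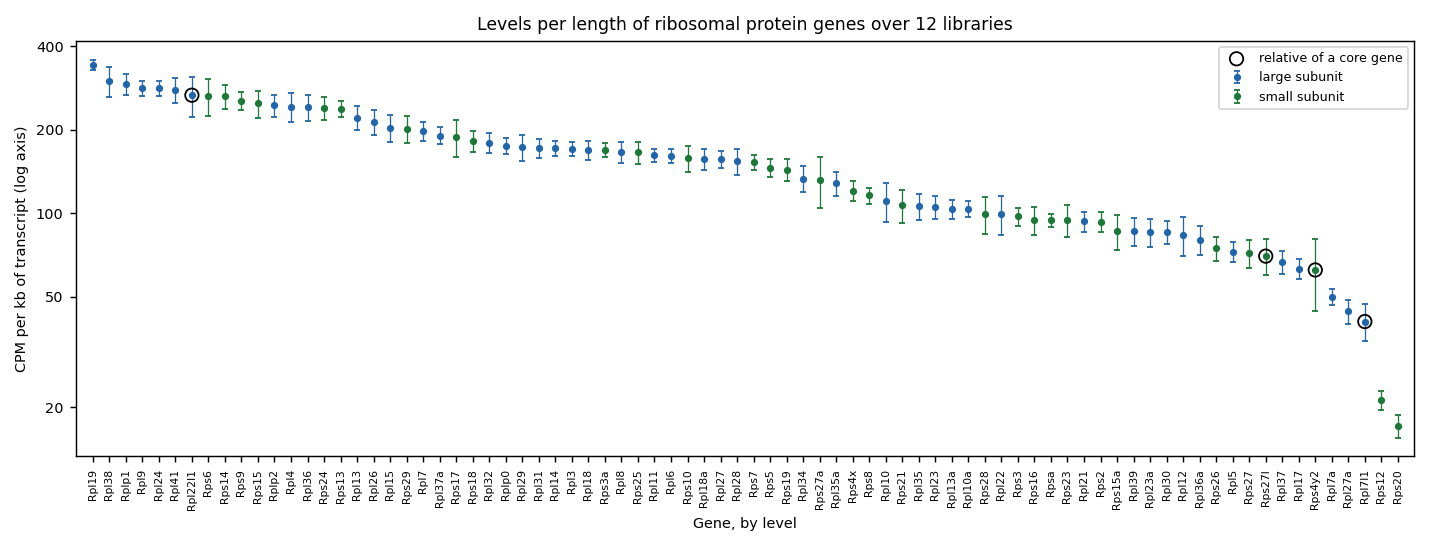
CPM per kb of transcript on a log axis for 80 genes in order of level, large subunit in blue and small in green; circles mark relatives of core genes. Points are means and bars SD over 12 libraries, and most neighbours overlap; Rpl3l, at 0.73, is left out. Rpl22l1, circled at the upper end, sits at 266, and Rps12 and Rps20 at the lower end stand below the rest.

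The relatives differed in how much they added to their counterparts. Rpl22l1, a relative of the RNA-binding large subunit protein Rpl22 that is raised in mice lacking Rpl22, was the more abundant of the pair in every library. It had 190, 115, 147 and 127 CPM in homozygotes 1 to 4, 173, 144, 128 and 127 CPM in heterozygotes 1 to 4, and 116, 147, 141 and 121 CPM in wild type 1 to 4. Rpl22 had 61.0, 41.6, 54.9 and 46.8 CPM in homozygotes, 47.1, 52.9, 36.0 and 48.8 CPM in heterozygotes, and 35.6, 44.0, 52.7 and 42.9 CPM in wild type. Rpl22l1 thus held 73.8% ± 1.3 of the pair's counts in homozygotes, 75.5% ± 3.3 in heterozygotes and 75.03% ± 2.1 in wild type (SD, n = 4 each). Per length the levels were 266 CPM per kb for Rpl22l1 and 99.2 for Rpl22, or 72.8% for Rpl22l1. Of the stretches of Rpl22l1, 61.6% were shared with other genes, chiefly Gm15421, against 24.5% for Rpl22. Of the bases printed above, TATAAA was found in those of Rpl22l1 and CTTTC in those of Rpl22. That CTTTC began more than 30 bases before the annotated start, so Rpl22 was not among the 19 windows counted above. The bases of Rpl22l1 hold the pyrimidine run ttctcttccc just after the annotated start, which the motif CTTTC does not match.

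Rpl36al, named outside the pattern above, held 82.4% ± 0.7 of the counts of its pair with Rpl36a in homozygotes, 83.9% ± 2.0 in heterozygotes and 83.3% ± 1.3 in wild type (SD, n = 4 each). Rps27l held 60.01% ± 2.0 in homozygotes, 59.5% ± 3.1 in heterozygotes and 55.8% ± 4.3 in wild type of its pair with Rps27, and per length it made up 49.4% of the pair. Of the stretches of Rps27, 98.6% were shared with Rps27rt, so its level is uncertain. Rpl7l1, a relative of Rpl7, held 22.5% ± 2.2 in homozygotes, 24.6% ± 3.4 in heterozygotes and 26.1% ± 4.2 in wild type. Rpl3l, a paralog of Rpl3 found in striated muscle, was at or near 0, with at most 2.8 CPM in a library and 0.426% of its pair's counts on average. The testis paralogs Rpl10l and Rpl39l were the entries below the count threshold. Ratios within a library do not depend on scaling. Of 18 ratio tests, 6 pairs in 3 comparisons, 0 passed after adjustment (exact two-sided permutation tests, with 4 libraries a side and 0.0286 as the lowest p they can give).

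**Figure D3:**
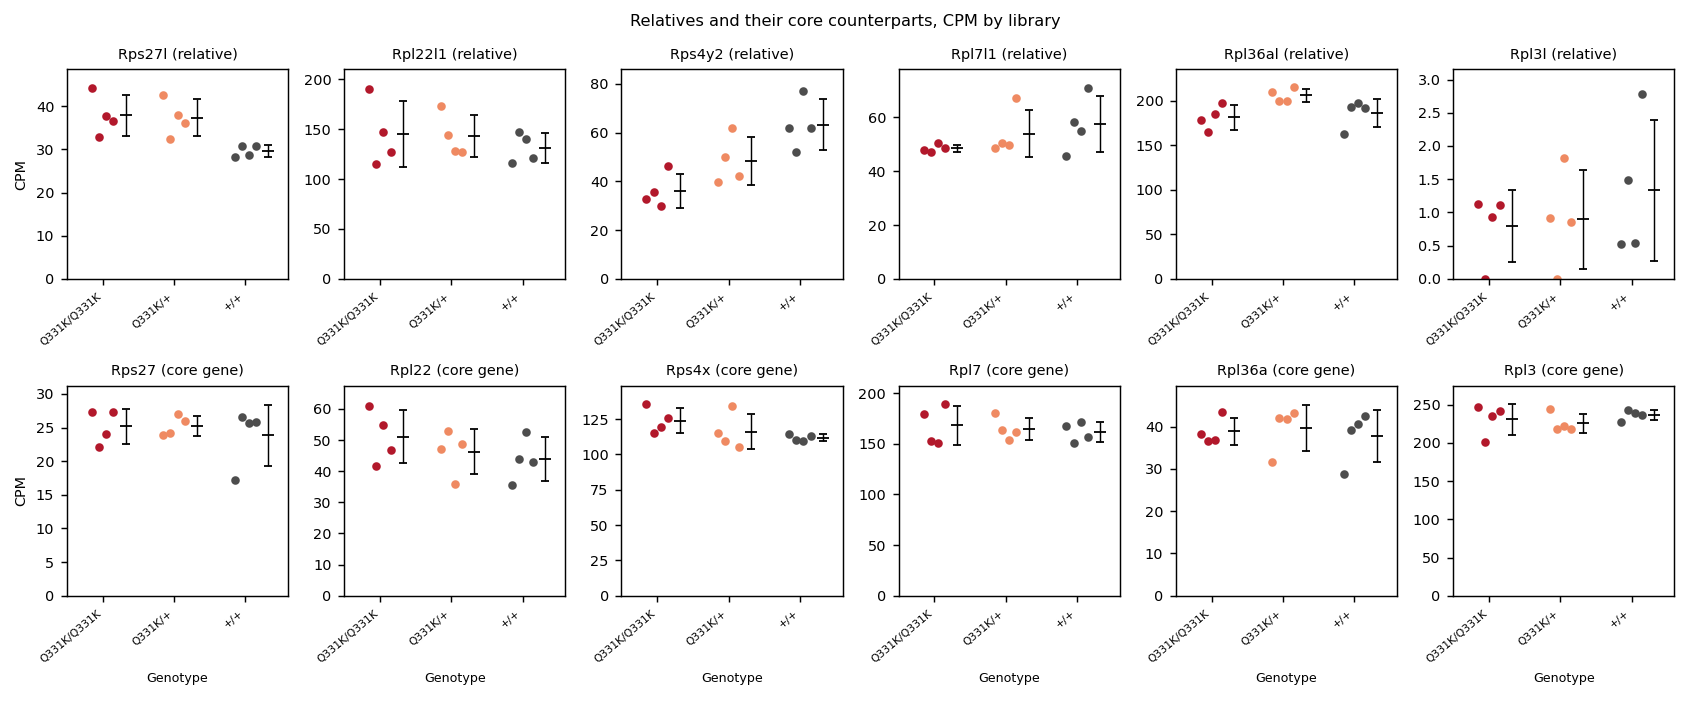
CPM per library of 6 relatives (top row) and their core counterparts (bottom row), each panel with homozygotes, heterozygotes and wild type from left to right; bars give the mean and SD of 4. Rps27l is higher in each mutant library than in each wild type library, Rps4y2 is lower in each homozygote library than in each wild type library, and Rpl22l1 exceeds Rpl22 throughout.

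Between homozygotes and wild type, 0 of the 82 ribosomal protein genes passed an adjusted p of 0.05 in edgeR's quasi-likelihood test, where 1 of 16338 genes did (0.00612%). At an unadjusted p under 0.05 there were 2 members, Rps27l higher and Rps4y2 lower, where 4.82% of all genes were (2.19% higher and 2.63% lower). The limma-voom test gave 0 adjusted calls and 2 at the unadjusted level, and DESeq2 gave 1 adjusted call, Rps4y2, and 2 unadjusted. Over all 16338 genes, limma-voom gave 1 adjusted and 1185 unadjusted, and DESeq2 13 and 939. The log2 difference was above 0 for 48 members and below 0 for 34, with a median of 0.04, where 49.4% of all genes were above 0 and the median was -0.00. The count depended on the model and on single libraries: limma-voom had 31 above 0, and leaving out 1 library gave 34 (without wild type 1) to 68 (without homozygote 2). The median was -0.01 with limma-voom and -0.03 to 0.09 when those same libraries were left out. In edgeR with all libraries the median was 0.04 for the large and 0.02 for the small subunit. The 95% intervals of all 77 core genes lay within a 1.5-fold difference either way.

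Between heterozygotes and wild type, 0 of the 82 passed (0.0% of all genes did), and 1, Rps27l, had an unadjusted p under 0.05, where 4.1% of all genes did (1.79% higher and 2.31% lower). DESeq2 and limma-voom each gave 0 adjusted calls, and 2 members each at the unadjusted level. Over all 16338 genes, DESeq2 gave 9 adjusted and 796 unadjusted, and limma-voom 0 and 1066. In edgeR 68 members were above 0 and 14 below, where 49.7% of all genes were above 0. The median log2 difference was 0.07 over all members, 0.06 for the large and 0.08 for the small subunit. Without wild type 1 the count was 47 above 0 and the median 0.01. The intervals of 76 of 77 core genes lay within 1.5-fold, with Rpl12 the exception. Homozygotes and heterozygotes differed in 0 of the 82 after adjustment (0.0% of all genes passed), with 24 members above 0, where 49.8% of all genes were, 58 below and a median of -0.04. Without homozygote 2 there were 49 above 0 and the median was 0.02, and without homozygote 1 there were 13. No member had libraries that did not overlap there (0 higher and 0 lower), where 1.03% of all genes were higher and 0.998% lower. Rps4y2 had an unadjusted p under 0.05 in that comparison, where 2.97% of all genes did. A test of any genotype difference passed 0 members and 0.0% of all genes, with 2 members (Rps27l and Rps4y2) against 3.59% of all genes at an unadjusted p under 0.05. The slope over 0, 1 and 2 mutant alleles passed 0 members, where 0.00612% of all genes passed, with the same 2 against 4.67% unadjusted. DESeq2 passed 1 member for the slope, Rps4y2, and 0 for any genotype, and limma-voom 0 for both. Over all genes DESeq2 passed 11 for the slope and 5 for any genotype, and limma-voom 1 and 0. Lower in heterozygotes without overlap with wild type were 0 members, against 1.76% of all genes.

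**Figure D4:**
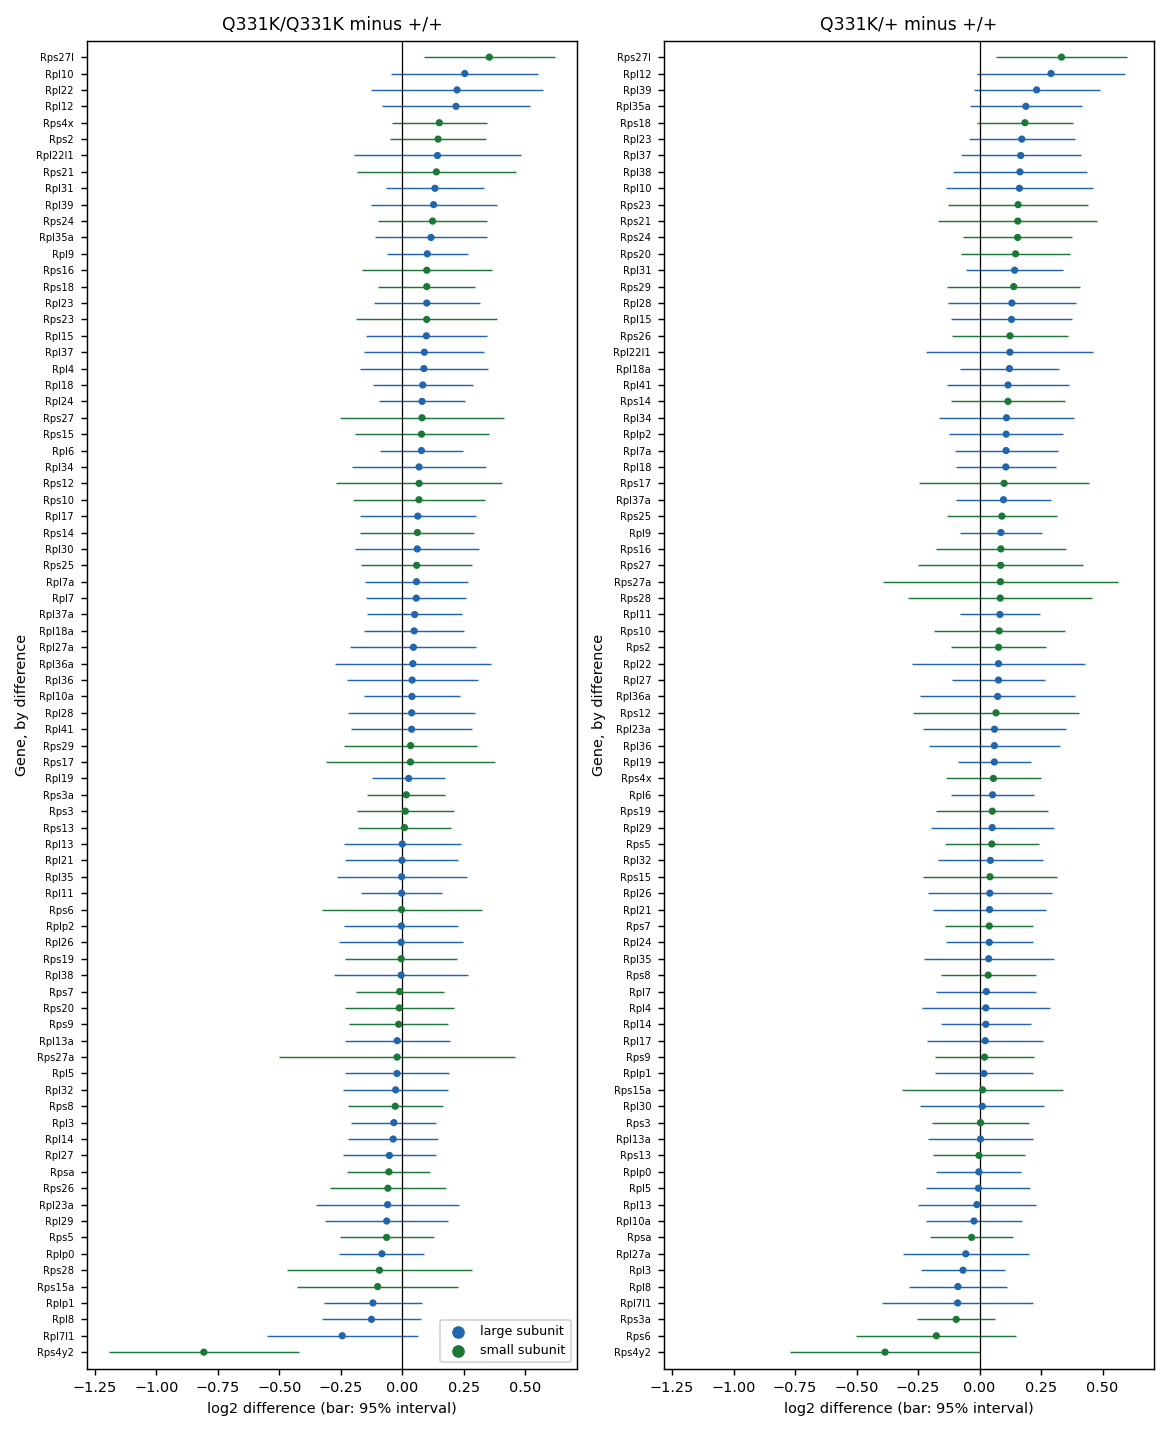
Log2 differences of 80 members, homozygotes minus wild type at left and heterozygotes minus wild type at right, each in order of difference, with 95% intervals from the edgeR model; blue is large and green small subunit. Most intervals cross 0, Rps27l lies at the top of both panels and Rps4y2 at the bottom of both; Rpl3l is left out because its interval is several log2 units wide.

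Rps27l encodes a relative of the small subunit protein Rps27, and in human cells it is a target of p53. It had 44.1, 32.9, 37.8 and 36.5 CPM in homozygotes 1 to 4, 42.6, 32.4, 38.0 and 36.2 CPM in heterozygotes 1 to 4, and 28.1, 30.9, 28.7 and 30.9 CPM in wild type 1 to 4. Each of the 8 mutant libraries was above each wild type library. The log2 difference was 0.35 (SE 0.12, 95% interval 0.09 to 0.62) in homozygotes and 0.33 (SE 0.12, 0.07 to 0.60) in heterozygotes, against wild type, with edgeR adjusted p of 0.986 and 0.999. It did not pass in any of the alternatives run, with an adjusted p of 0.458 or more in homozygotes and 0.662 or more in heterozygotes. Rps27l was highest in homozygote 1 and heterozygote 1, and without both the differences were 0.27 and 0.27. The log2 ratio to Rps27 differed by 0.25 in homozygotes and 0.22 in heterozygotes against wild type (exact permutation p = 0.143 and 0.229; adjusted over 18 tests 0.514 and 0.579). Libraries that do not overlap, with the mutant higher, were found for 2 members in homozygotes (Rps27l and Rps4x), where 1.29% of all genes had this, and for 5 in heterozygotes (Rps27l, Rpl12, Rpl39, Rpl31 and Rps24), where 1.48% did.

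The entry named Rps4y2 lies on chromosome 6 (chr6:148354656-148355598) inside Tmtc1, and GENCODE release M21 annotates it as a transcribed processed pseudogene. It had 32.8, 35.5, 30.02 and 46.2 CPM in homozygotes 1 to 4, 39.8, 49.9, 61.9 and 42.1 CPM in heterozygotes 1 to 4, and 61.9, 51.9, 77.2 and 61.9 CPM in wild type 1 to 4. Homozygotes lay below wild type without overlap, the only member to do so (2.12% of all genes did), and heterozygotes overlapped both. The log2 difference was -0.81 (SE 0.18, 95% interval -1.19 to -0.42) in homozygotes against wild type and -0.38 (SE 0.18, -0.77 to 0.00) in heterozygotes against wild type, with edgeR adjusted p of 0.986 and 0.999. Per mutant allele it was -0.40, with an adjusted p of 0.978 in edgeR. In DESeq2 the homozygote difference of -0.80 had an adjusted p of 0.0417, and the slope an adjusted p of 0.0248; over all settings the adjusted p of the homozygote difference ranged from 0.0417 to 1. Tmtc1 itself averaged 37.7 ± 14.5 CPM in homozygotes, 38.4 ± 14.5 CPM in heterozygotes and 30.2 ± 3.8 CPM in wild type, and reads of the overlap can be counted for either. Rps4x, the X-linked core gene, had 136, 116, 119 and 126 CPM in homozygotes and 109 to 114 CPM in wild type, a log2 difference of 0.15 (SE 0.09, interval -0.04 to 0.34). The log2 ratio of Rps4y2 to Rps4x differed by -0.96 in homozygotes and by -0.44 in heterozygotes against wild type, each at the smallest possible exact permutation p of 0.0286 and 0.257 after adjustment, and by -0.52 between homozygotes and heterozygotes (exact p = 0.0571, adjusted 0.343).

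Among the large subunit genes, Rpl10, which joins late as the subunit matures, had 127, 86.2, 82.4 and 87.0 CPM in homozygotes 1 to 4, 106, 80.3, 84.5 and 87.9 CPM in heterozygotes 1 to 4, and 85.3, 79.8, 79.2 and 76.4 CPM in wild type 1 to 4. Its homozygote difference of 0.25 (SE 0.14) was 0.09 without homozygote 1 and heterozygote 1. Rpl12, a protein at the base of the stalk, had 134, 85.4, 107 and 101 CPM in homozygotes 1 to 4, 134, 97.6, 96.9 and 121 CPM in heterozygotes 1 to 4, and 91.5, 91.6, 92.3 and 92.1 CPM in wild type 1 to 4, which hardly varied. Its heterozygote difference was 0.29 (SE 0.14, interval -0.01 to 0.59), and it overlaps Lrsam1. Rpl39, which lines the exit tunnel, averaged 52.8, 56.8 and 48.3 CPM in homozygotes, heterozygotes and wild type, with a heterozygote difference of 0.23, and Rps18 averaged 102, 108 and 95.2 CPM, with a heterozygote difference of 0.18. Rps2 had a homozygote difference of 0.15. Below 0 in homozygotes were Rpl7l1 (-0.24), Rpl8 (-0.13) and Rplp1 (-0.12), and in heterozygotes Rps6 (-0.18), Rps3a (-0.10) and Rpl8 (-0.09). Leaving out 1 library moved the homozygote differences to -0.12 for Rpl7l1 (without wild type 4), -0.08 for Rpl8 (without wild type 3) and -0.07 for Rplp1 (without homozygote 2). It moved the heterozygote differences to between -0.32 (without heterozygote 4) and -0.09 (without wild type 4) for Rps6, -0.06 for Rps3a (without wild type 2) and -0.04 for Rpl8 (without wild type 3). Between homozygotes and heterozygotes Rps26 differed by -0.18 and Rps20 by -0.16. With all 12 libraries, TMM scaling and no replicate block, none of these had an unadjusted p under 0.05 in edgeR. In 1 or more of the alternatives Rpl10, Rpl12, Rpl39, Rpl7l1, Rps6, Rps18 and Rps20 did, the lowest being 0.0132 for Rps18 in heterozygotes without homozygote 1 and heterozygote 1, and none had an adjusted p under 0.522 there.

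The family also differed between libraries of the same genotype. The pair of libraries below, homozygote 2 and wild type 1, was picked after the values of the family were seen. The counts for this pair therefore describe it and are no test. Homozygote 2 and wild type 1 were both below the other 10 libraries for 42 of the 82 genes (51.2%), 27 of the large and 15 of the small subunit, and above them for 0, where 2.12% and 1.25% of all genes were so placed. These genes included Rps29, with 63.0 and 58.7 CPM in homozygote 2 and wild type 1, against 76.2 to 86.2 CPM in the other 10. Rps21 had 36.0 and 29.7 CPM, against 39.8 to 52.6 CPM, and Rps15 had 100 and 96.4 CPM, against 120 to 142 CPM. Wild type 1 was the lowest library for 41 of the 77 core genes and homozygote 2 for 18. The median log2 deviation of the family from its mean over libraries was -0.16 in homozygote 2 and -0.20 in wild type 1, and 0.00 to 0.12 in the other 10.

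Of ribosomal protein genes named outside the pattern, Fau, whose protein is fused to a ubiquitin-like protein, and Rpl36al were also low in the same pair of libraries, and Gnb2l1 (Rack1) was not. Low there too were 12 of 76 mitochondrial ribosomal protein genes (15.8%), 3 of 70 biogenesis genes (4.29%) and 2 of 51 translation factors (3.92%). Over all genes the share in this pair was 2.12%. These libraries also had the highest summed endothelial markers, 28.0 and 27.9 CPM over 6 markers, against 9.2 to 21.4 CPM. Their mitochondrially encoded RNA was 0.765% and 0.657%, in a range of 0.657% to 1.56%. Homozygote 1 (0.764%), homozygote 4 (0.735%) and heterozygote 4 (0.757%) were as low as homozygote 2. Other genes with short transcripts were also lower in homozygote 2 and wild type 1. There 381 genes with transcripts under 700 bases and at least 10 CPM had median deviations of -0.09 and -0.21. For 3745 genes with 3000 bases or more they were 0.04 and 0.07. Heterozygote 1 had -0.07 for the short and 0.05 for the long transcripts, with a family deviation of 0.02. The remaining libraries had -0.005 to 0.12 for the short transcripts. The part of these measures in the result was not tested. Since the pair low in the family is a homozygote and a wild type library, the heterozygotes held neither of them.

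**Figure D5:**
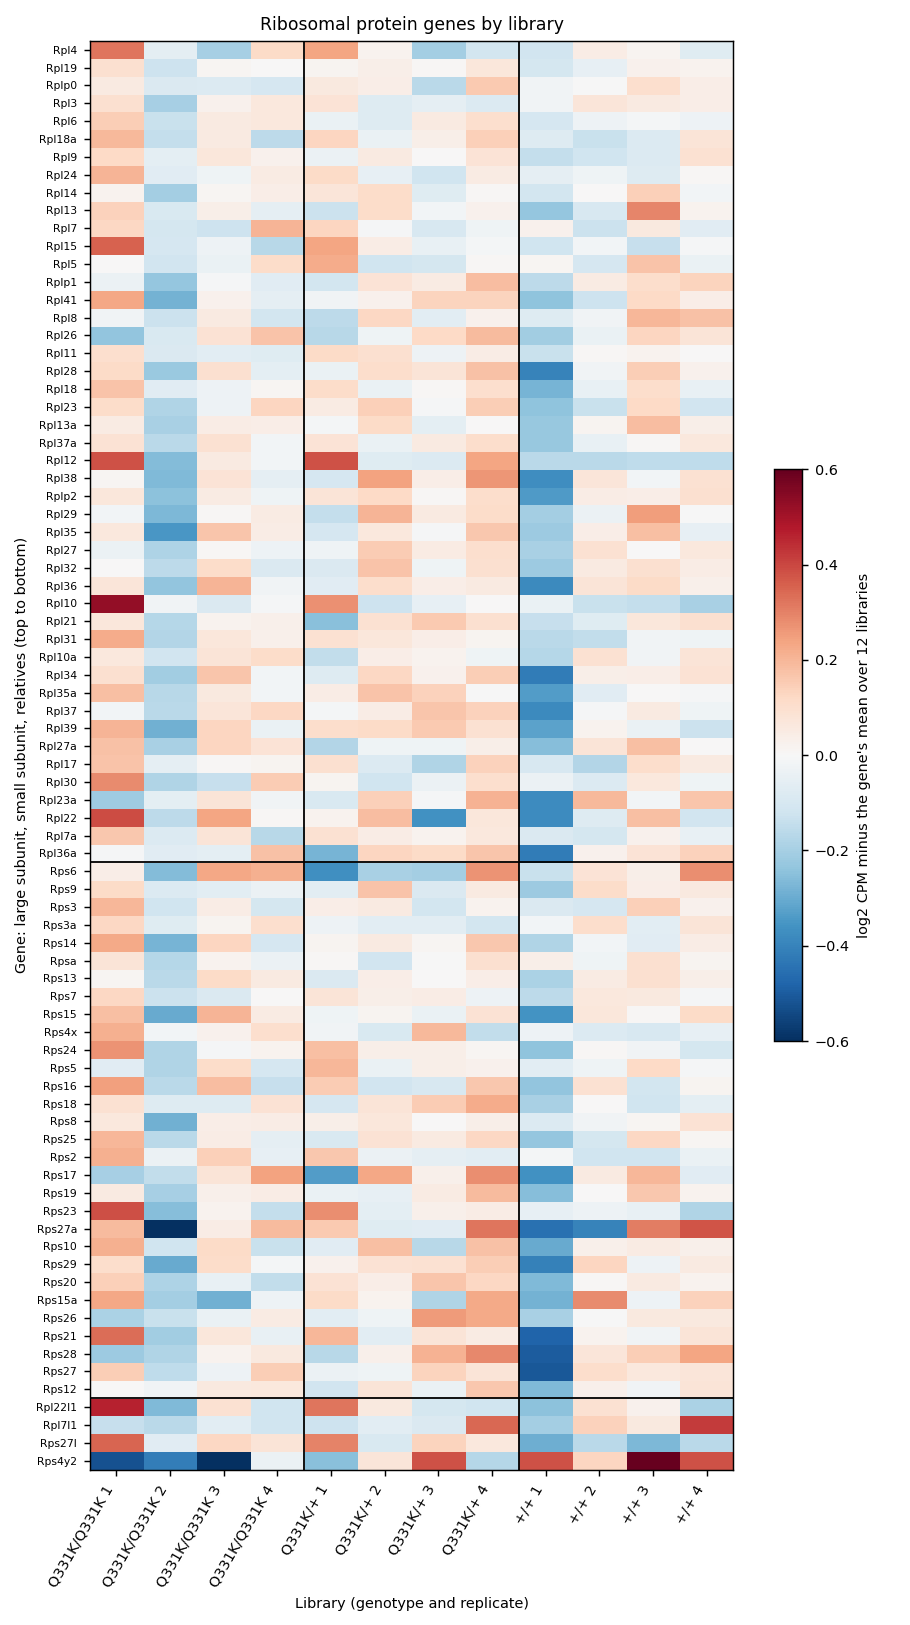
Log2 CPM of 80 genes in each library minus the gene's mean over 12 libraries, red above and blue below; homozygotes, heterozygotes and wild type run from left to right, and large subunit, small subunit and relatives (4, without Rpl3l) from top to bottom. Blue columns at homozygote 2 and wild type 1 run through both subunits.

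Homozygote 1 and heterozygote 1, the libraries poor in interneuron markers, were both above the other 10 for 17 of the 82 genes (20.7%), 11 of the large and 6 of the small subunit, and below for 0. Over all genes the shares were 10.3% above and 10.6% below. Of the 17, Rpl10 had 127 and 106 CPM, against 76.4 to 87.9 CPM in the other 10, Rps23 had 115 and 107 CPM, against 73.3 to 90.6 CPM, and Rpl4 had 462 and 436 CPM, against 321 to 401 CPM. Rpl22l1, Rpl12 and Rps27l were also among them, with mean ratios of 1.38, 1.37 and 1.31 to the other libraries. In the same libraries 8 of 11 motor neuron markers were above the other 10 and 1, Esrrg, was below. Esrrg had 43.8 and 41.1 CPM, against 44.7 to 81.4 CPM. Of the inhibitory markers 6 of 8 were below, of the excitatory markers tested 2 of 4 were below, and 0 of either were above. The part of cell content in these differences was not tested.

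Other genes of the pathway were read from lists of the same fit, and 0 passed in any list in the comparison of homozygotes with wild type, by edgeR, DESeq2 or limma-voom. At an unadjusted p under 0.05 in edgeR, 2 biogenesis genes were higher and 2 lower, 2 translation factors were lower, 2 genes of mRNA control were higher, and 2 mitochondrial ribosomal protein genes were higher and 1 lower, where 2.19% of all genes were higher and 2.63% lower. Of 70 ribosome biogenesis genes, 33 were above 0 and 37 below, where 49.4% of all genes were above 0. The smallest p there was that of Nop16, a nucleolar protein of large subunit assembly, which averaged 46.2, 45.1 and 37.5 CPM in homozygotes, heterozygotes and wild type, a homozygote difference of 0.30 with an unadjusted p of 0.0185. Wdr75, of the small subunit processome, differed by 0.42. Both were highest in homozygote 1 and heterozygote 1, and without them the differences were 0.24 and 0.34. Of 51 translation factors, 22 were above 0 and 29 below. The elongation factor Eef1a1 averaged 39.1, 37.3 and 65.3 CPM in homozygotes, heterozygotes and wild type, a homozygote difference of -0.74 (95% interval -1.42 to -0.07), and Eef2 differed by -0.28. Both were lowest in homozygote 1 and heterozygote 1, and without them the differences were -0.60 and -0.21. Of 26 genes that control these mRNAs through mTOR and their binding proteins, 14 were above 0, among them Eif4ebp1, a repressor of cap-dependent translation (0.94), and the mTOR subunit Mlst8 (0.27). Both were also highest in that pair of libraries, and without it the differences were 0.59 and 0.21. Of 76 mitochondrial ribosomal protein genes, 38 were above 0 and 38 below, with Mrps33 (0.55) and Mrpl10 (0.22) having the smallest p.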

How the data were processed

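The authors deposited raw counts of reads for every gene in laser-captured motor neurons. Per the labels' protocols, cDNA was made with a template-switching kit and tagged by a transposase; no molecular identifiers were added. The submitters' processing notes name Trim Galore 0.4.3, HISAT2 2.0.5 and build GRCm38. The counting program, annotation and strand setting are not given in the sources used here, nor is how reads that match several genes were counted.

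Counts were filtered with filterByExpr, scaled by TMM and fitted in edgeR 4.0.16 (R 4.3.3), all 12 libraries and 25965 entries together, with Benjamini-Hochberg adjustment over the 16338 genes tested and a threshold of 0.05, two-sided; log2 CPM used a prior count of 2. DESeq2 1.42.0 and limma-voom 3.58.1 were alternatives. The fit was tested on simulated data. Lengths and shared 50-base stretches come from GENCODE M21. Paralog ratios are log2 of counts with 0.5 added. The members and gene lists were chosen with earlier results of these data known. Genes were named by rule: the 4 smallest p in each direction for each mutant genotype against wild type, the 3 smallest for homozygotes against heterozygotes and for the allele slope, each listed relative with its counterpart, the 3 highest and lowest levels per subunit, the 3 most variable, those nearest the count threshold, the 2 smallest p of each list, and Tardbp. Some genes that this rule names are not reported here or plotted. Other members were named after their values were seen (Rpl4, Rps23, Rps29, Rps21, Rps15, Rpl31 and Rps24). Libraries of 1 genotype differed by more than counting error (chi-square per degree of freedom at least 61), so none was counted as the same library deposited again; this does not show that they come from separate animals.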

Additional observations from a re-analysis of the deposited data

Results flagged for a closer look

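In 99 groups of 4 libraries, 8 held a library far from the other 3 by Dixon's criterion, and chance marks about 1 group in 20. Rpl10 in homozygote 1 had 127 CPM, against 82.4 to 87.0 CPM in the other homozygotes. Rpl3 (244 CPM, against 218 to 222) and Rps2 (104 CPM, against 88.6 to 90.5) were high and Rpl36a (31.7 CPM, against 41.8 to 43.3) was low in heterozygote 1. Rpl7l1 had 67.2 CPM in heterozygote 4, against 48.4 to 50.6 CPM in the other heterozygotes. In wild type 1, Rps27 (17.1 CPM, against 25.7 to 26.5), Rps20 (52.5 CPM, against 63.5 to 65.7) and Tardbp (62.3 CPM, against 76.1 to 78.7) were the lowest of their genotype.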

How the results depend on the processing

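Median log2 differences of the family and of each subunit, and the summed shares, moved by less than the spread between libraries under every alternative run, but several changed sign. The family median between homozygotes and wild type (0.0377) was -0.0111 with limma-voom, -0.00913 with genes detected as a covariate, -0.00797 without homozygote 1 and heterozygote 1, and -0.0275 to 0.0921 when a library was left out. Between homozygotes and heterozygotes (-0.0406) it was 0.0212 without homozygote 2 and wild type 1, and -0.072 to 0.0154 when a library was left out. Subunit medians changed sign in the same settings, except the large subunit with the covariate. Without wild type 1 the difference in summed share turned to -0.0181 percentage points in homozygotes and -0.00265 in heterozygotes, against wild type. Between homozygotes and heterozygotes it turned to 0.0115 without homozygote 2 and 0.00281 without heterozygote 4. Leaving out wild type 1 and homozygote 2 together, and the paralog ratios without homozygote 1 and heterozygote 1, were chosen after seeing the data. No ribosomal protein gene passed in any edgeR or limma-voom setting; with DESeq2, 1 passed between homozygotes and wild type and 1 for the allele slope, in each case Rps4y2 (-0.80 and -0.40). Members above 0 numbered 31 between homozygotes and wild type with limma-voom. Between homozygotes and heterozygotes they numbered 13 to 49 when a library was left out (13 without homozygote 1, 49 without homozygote 2), 15 without homozygote 1 and heterozygote 1, and 50 without homozygote 2 and wild type 1, against 24.

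Over all genes, DESeq2 passed 13 between homozygotes and wild type, 9 between heterozygotes and wild type, 3 between homozygotes and heterozygotes, 5 for any genotype and 11 for the slope. The single gene that passed between homozygotes and wild type became 0 with no filter, with either covariate, with only the libraries compared, without either pair of libraries, and without any 1 library (0 to 0). For the slope, 1 gene became 0 with genes detected as a covariate and without either pair, and 0 to 3 when a library was left out. Replicate numbers did not pair the libraries as a rule, and 4 of 12 libraries were closest to their own number. Same-number correlations ran from -0.05 to 0.11, except 0.45 for homozygote 1 and heterozygote 1, the libraries poor in interneuron markers. With the replicate block, 4 genes passed for the slope, and 0 ribosomal protein genes in any comparison.

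Other differences near 0 changed sign. Tardbp between homozygotes and wild type was -0.00491 with limma-voom, -0.0238 without homozygote 2 and wild type 1, and -0.028 to 0.0734 when a library was left out. Between heterozygotes and wild type it was -0.0832 to 0.0428, and between homozygotes and heterozygotes -0.000237 to 0.0842. When a library was left out, the log2 ratio difference between heterozygotes and wild type was -0.0382 to 0.13 for Rpl22l1 to Rpl22, -0.042 to 0.13 for Rpl36al to Rpl36a, -0.23 to 0.00794 for Rpl7l1 to Rpl7 and -2.56 to 0.16 for Rpl3l to Rpl3. Without homozygote 1 and heterozygote 1 it was -0.0382 for Rpl22l1 and -0.042 for Rpl36al. Between homozygotes and heterozygotes it was -0.0142 to 0.12 for Rps27l to Rps27 and -1.90 to 1.69 for Rpl3l to Rpl3 (1.69 without homozygote 2 and wild type 1). Rpl3l had 0 counts in homozygote 2 and heterozygote 2. The cause of these changes was not tested.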
